A study of Mus musculus with 12 samples.

Results

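B2m and Gusb are 2 of the 15 genes that could be named among 52299 tested probes of a transcript array hybridised with RNA from 12 mouse left ventricles. They were taken by probe (number 13 of the array's named set for B2m, number 3 for Gusb) as the light chain of MHC class I and a lysosomal enzyme, and each was printed as 20 spots. The mice were male C57BL/6J, either wild type or lacking the long noncoding RNA Miat in the whole body, and their hearts were taken 4 weeks after a sham operation or an induced myocardial infarction (MI). The 4 groups held 3 independent ventricles each: wild-type sham and wild-type MI at 13 to 14 weeks of age, knockout sham at 15 to 16 weeks and knockout MI at 16 weeks. Every knockout mouse was thus older than every wild-type mouse, and the labels do not say how much of each ventricle was scar. Age and genotype cannot be told apart in these data.

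B2m encodes beta-2 microglobulin, the small subunit that binds MHC class I heavy chains and lets them carry peptides to the surface of nearly all nucleated cells; interferons raise its transcription. Gusb encodes beta-glucuronidase, an acid hydrolase that removes glucuronic acid from glycosaminoglycans in the lysosome and is abundant in macrophages. After an infarct, the ventricle takes up leukocytes and forms a scar of fibroblasts and matrix, so immune and lysosomal genes are often followed there. Both genes also serve as reference genes for RNA normalisation. In RNA from whole ventricles, fewer cells of a type and less RNA per cell cannot be told apart. Other genes of antigen presentation or of the lysosome, cell type markers and Miat itself were not analysed here, because the remaining probes carry design IDs; the knockout labels were therefore not checked against Miat.

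B2m lies on chromosome 2 (GRCm38.p6, chr2:122147687-122153082, plus strand) and Gusb on chromosome 5 (chr5:129989011-130003049, minus strand), in the RefSeq annotation. Their promoters are shown as background, and a link between these sequences and the array values was not tested. Each line runs 5′ to 3′ on the gene's strand, from 250 bases before the annotated start to 5 after it (chr2:122147437-122147691 and chr5:130003045-130003299), and capitals mark motif matches.

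B2m: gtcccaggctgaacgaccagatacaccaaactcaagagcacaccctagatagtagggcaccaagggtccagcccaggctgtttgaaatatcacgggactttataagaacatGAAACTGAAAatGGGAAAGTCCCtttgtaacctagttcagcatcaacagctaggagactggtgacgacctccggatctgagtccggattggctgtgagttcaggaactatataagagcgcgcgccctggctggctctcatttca

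Gusb: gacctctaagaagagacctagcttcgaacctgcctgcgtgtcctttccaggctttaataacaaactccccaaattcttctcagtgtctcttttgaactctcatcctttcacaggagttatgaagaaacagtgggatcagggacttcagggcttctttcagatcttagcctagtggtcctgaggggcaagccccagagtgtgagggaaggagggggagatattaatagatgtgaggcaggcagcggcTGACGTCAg

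4 motifs, chosen with these promoters in view, were searched on both strands. The interferon-response core GAAANNGAAA occurred in B2m at positions -139 to -130, counted from the start, and in 3.01% of all 32851 RefSeq promoter windows of this length. The NF-kB-like motif GGGANNNNCC occurred in B2m on the plus strand from -127 and, overlapping it by all but 1 base, on the minus strand from -126; 17.9% of windows held it. The cAMP response element TGACGTCA crossed the start of Gusb, from -4 to 4, and was present in 1.63% of windows. The E-box CACGTG, present in 6.21% of windows, had no match in either promoter. A match is a description of these letters and not a measured binding site.

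Across the series, between 82.6% and 88.1% of non-control spots per array were well above background and none was saturated. The number of arrays, 3 per group, limited the precision. All 240 spots of B2m and all 240 spots of Gusb were well above background. Per array, 16 to 20 spots of B2m and 17 to 20 of Gusb remained after outlier flags. Values are the log2 of the processed signal averaged over these spots, minus the array's 75th percentile of non-control spots. Spots of 1 probe agreed closely: their SD within an array was 0.02 to 0.05 for both genes, and the standard error of an array's mean was at most 0.012 for B2m and 0.010 for Gusb. The SD between arrays of a group, pooled over groups, was 0.37 for B2m and 0.27 for Gusb. That was 50.3 and 28.7 times the median standard error over spots, so spot noise was small against the spread between arrays. With 1 array per ventricle, this spread holds ventricle, labelling and scan together.

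The arrays came from 2 scans, as judged from the scan times in the file headers. Scan 1 held the 6 MI arrays of both genotypes together with replicates 2 and 3 of knockout sham, while scan 2 held replicate 1 of knockout sham and the 3 arrays of wild-type sham. Wild-type MI and wild-type sham therefore shared no scan, and scan and surgery cannot be told apart within wild type.

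B2m was highest in wild-type MI. Its values there were 6.63, 7.35 and 6.97 in replicates 1, 2 and 3, with a mean of 6.98 ± 0.36 (SD, n = 3). In wild-type sham they were 5.73, 6.05 and 6.23, with a mean of 6.00 ± 0.25 (SD, n = 3). Every wild-type MI array lay above every wild-type sham array, with a gap of 0.40. How many of all tested probes separate their groups in this way was not counted, here or where such separations are given below. Knockout sham was the tightest group, at 6.07, 6.06 and 6.12, with a mean of 6.08 ± 0.03 (SD, n = 3). Knockout MI was the widest, at 5.75, 5.70 and 6.74, with a mean of 6.06 ± 0.59 (SD, n = 3). Its replicates 1 and 2 lay below all knockout sham arrays and replicate 3 lay above them, within the range of wild-type MI. The order of group means was wild-type MI, knockout sham, knockout MI and wild-type sham; the arrays of the last 3 overlapped, and those of knockout sham lay within the range of both others.

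Gusb was also highest in wild-type MI. Values there were 1.80, 2.48 and 1.80, with a mean of 2.03 ± 0.39 (SD, n = 3), and replicate 2 was again the highest of the 12 arrays. Wild-type sham was narrow, at 1.10, 1.15 and 1.24, with a mean of 1.17 ± 0.07 (SD, n = 3). The wild-type groups were separated by a gap of 0.55. Knockout sham gave 1.50, 1.14 and 0.88, with a mean of 1.17 ± 0.31 (SD, n = 3), and its highest array was replicate 1, the one from scan 2. Knockout MI gave 1.13, 1.22 and 1.52, with a mean of 1.29 ± 0.20 (SD, n = 3). Both knockout groups overlapped each other and wild-type sham, and no array outside wild-type MI reached 1.80. The order of means was wild-type MI, knockout MI, knockout sham and wild-type sham, of which the last 3 overlapped.

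**Figure D1:**
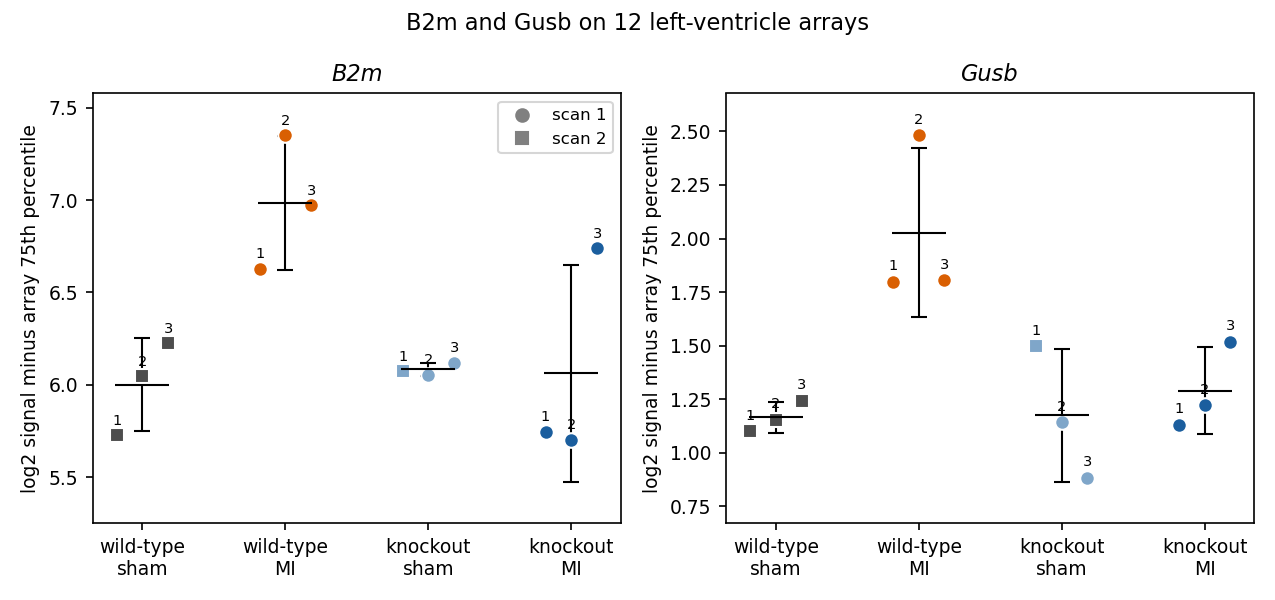
Log2 signal of B2m (left) and Gusb (right) minus the array's 75th percentile, 1 point per array with its replicate number, for 4 groups of 3 ventricles; circles are scan 1 and squares scan 2, the horizontal line is the group mean and bars are 1 SD. The wild-type MI arrays are the highest for Gusb, at 1.80 to 2.48, while for B2m knockout MI replicate 3 at 6.74 lies among them (6.63 to 7.35).

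Brightness ranks, which do not depend on how arrays are scaled to each other, moved the same way in wild type. Between 1.71% and 2.17% of tested probes were brighter than B2m on wild-type sham arrays, against 1.12% to 1.52% on wild-type MI arrays. For Gusb the shares were 16.5% to 17.4% in wild-type sham and 11.3% to 13.4% in wild-type MI. In the knockout, 1.85% to 2.04% of probes were brighter than B2m in sham and 1.24% to 2.21% in MI. For Gusb the knockout shares were 14.7% to 19.5% in sham and 14.5% to 17.1% in MI. The ranks thus separated sham from MI without overlap in wild type and overlapped in the knockout.

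The first comparison set infarcted against sham-operated ventricles in wild type. Both genes rose. On the log2 scale B2m was 0.98 higher after MI (SE 0.27; limma, adjusted p = 0.025), which is 1.98-fold with a 95% interval of 1.31 to 2.99. Gusb was higher by 0.86 (SE 0.21, adjusted p = 0.016 in limma), which is 1.82-fold with an interval of 1.33 to 2.49. All 3 MI arrays exceeded the sham mean, by 0.63, 1.35 and 0.97 for B2m and by 0.63, 1.32 and 0.64 for Gusb. An exact two-sided permutation test gave p = 0.1 for each gene, the smallest that 3 arrays against 3 can give. Changes called higher were common, at 12.8% of tested probes (26.7% in either direction), and 2 genes are too few to set against that share. That background moved with single arrays: 13938 probes were called in either direction, against 4034, 4700 or 8472 with replicate 2, 1 or 3 of wild-type sham left out and 6749 with replicate 2 of wild-type MI left out. It was 8990 in a fit of the wild-type groups alone, and 5492 or 5671 with scan as a fixed or random block. The number rose to 17764 with replicate 3 of wild-type MI left out and to 15838 with replicate 1 of knockout sham left out. Scaling to the other named genes gave 20169. The B2m difference exceeded that of 93.7% of tested probes and the Gusb difference that of 91.3%. Among the 13 other named genes, 4 were called higher and 1 lower, with a median difference of 0.02 against -0.04 over all probes.

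The increase of Gusb kept its side of the threshold under 15 of 15 other settings that kept all 12 arrays, over a range of 0.61 to 1.35, and in a fit of only the 2 wild-type groups (0.86). Its highest value came with scan as a fixed block, which rests on the 3 knockout sham arrays and took the difference from 0.86 to 1.35. B2m did not pass under quantile normalization (0.58, adjusted p = 0.11 in limma), in the authors' values (0.65, adjusted p = 0.083), or with scan as a fixed block (0.97, adjusted p = 0.22) or a random block (0.98, adjusted p = 0.080). Beside this, the upper part of the signal range was wider on wild-type MI arrays than on wild-type sham arrays. The distance from the 75th to the 99th percentile was 7.15 to 7.38, against 6.82 to 6.93 in wild-type sham. It was 7.02 to 7.17 in knockout sham and 6.79 to 6.89 in knockout MI. B2m lies near the 99th percentile, and the part of the wider range of wild-type MI in its result was not tested. Without wild-type sham replicate 1 or 2 neither gene passed, at 0.85 and 1.01 for B2m (adjusted p = 0.088 and 0.071 in limma) and 0.83 and 0.86 for Gusb (adjusted p = 0.057 for both). B2m also did not pass without wild-type MI replicate 2 (0.80, adjusted p = 0.091), the array with the highest value of both genes.

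The same surgery in the Miat knockout left neither gene past the threshold. The difference between MI and sham was -0.02 for B2m (SE 0.27, adjusted p = 0.99 in limma) and 0.12 for Gusb (SE 0.21, adjusted p = 0.90). The 95% intervals run from 0.65-fold to 1.49-fold for B2m and from 0.79-fold to 1.48-fold for Gusb, so a rise of that upper size or a fall of that lower size is not excluded by these arrays. Exact two-sided permutation tests gave p = 1 for B2m and p = 0.6 for Gusb. In this comparison limma called 0% of tested probes after adjustment, while 4893 had an unadjusted p under 0.05. Against the knockout sham mean, MI replicates 1, 2 and 3 lay at -0.34, -0.38 and 0.66 for B2m and at -0.04, 0.05 and 0.34 for Gusb. Without replicate 3 the B2m difference was -0.36, also not past the threshold. Within scan 1 alone, with 3 MI and 2 sham arrays, the values were -0.03 for B2m and 0.28 for Gusb. The sign was fixed for neither gene. For B2m it was positive under quantile normalization (0.15), under normexp (0.01), in the authors' values (0.16), when scaled to the other named genes (0.01) and with age as a covariate (0.18), and without knockout MI replicate 1 (0.14) or 2 (0.16). For Gusb it was negative without knockout sham replicate 3 (-0.03), and the difference was 0.0013 without knockout MI replicate 3.

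Before scaling between arrays, the mean processed intensity of Gusb was 962 to 1098 on knockout MI arrays and 665 to 920 on knockout sham arrays, without overlap. The 75th percentile that is subtracted was 8.58 to 8.85 on the log2 scale in knockout MI and 8.35 to 8.51 in knockout sham. The separation of Gusb in the knockout was thus present in raw brightness and absent after scaling. In wild type the raw intensities of Gusb were 1001 to 1098 in sham and 1272 to 2552 in MI, and the 75th percentiles were 8.86 to 8.87 and 8.52 to 8.83. There the separation was present before and after scaling. B2m intensities were 24752 to 35123 in wild-type sham and 42229 to 74470 in wild-type MI. In the knockout they were 21964, 24119 and 25009 in sham and 23634, 24026 and 41135 in MI, so B2m overlapped there before scaling as well as after it.

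**Figure D2:**
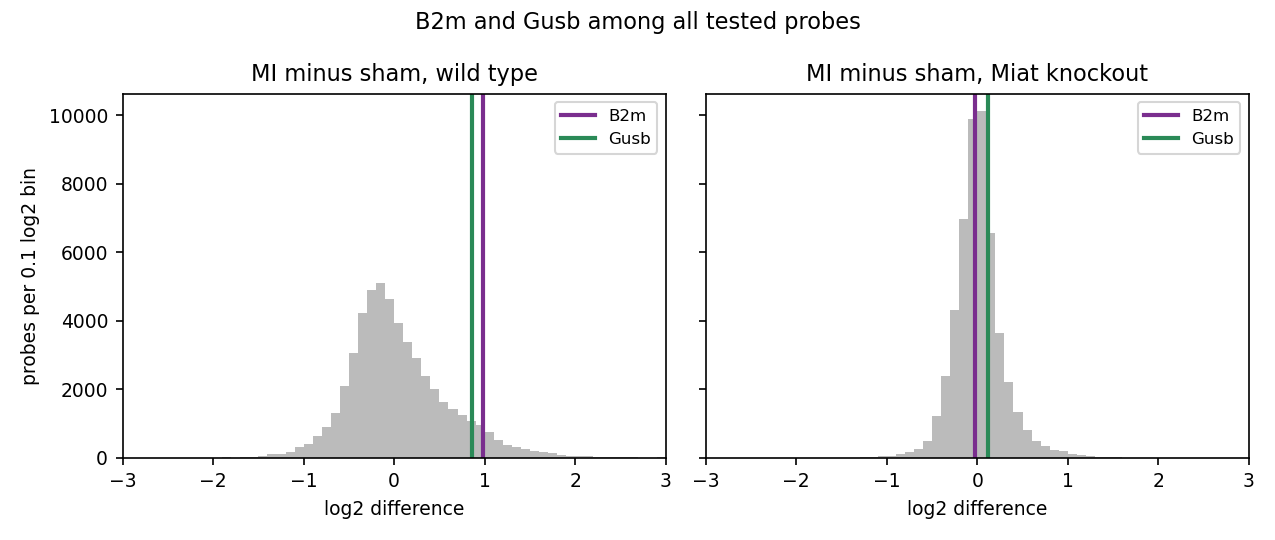
Number of tested probes per bin of 0.1 in the log2 difference between MI and sham, in wild type (left) and the Miat knockout (right), with vertical lines at B2m and Gusb. In wild type both lines lie in the upper part of a broad distribution (0.98 and 0.86), and in the knockout both lie near its centre (-0.02 and 0.12).

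Whether infarction acted differently in the genotypes was tested as the knockout MI effect minus the wild-type MI effect. The difference was -1.01 for B2m (SE 0.38, 95% interval -1.85 to -0.16) and -0.75 for Gusb (SE 0.29, 95% interval -1.39 to -0.10). Neither passed after adjustment over all probes (adjusted p = 0.13 for B2m and 0.14 for Gusb in limma), although the unadjusted p was 0.024 and 0.027. Here 3.75% of tested probes were called, and 2.14% were called negative. These 1961 calls rested on few arrays: there were 0 with knockout sham replicate 2 left out, 1 with knockout MI replicate 2 or wild-type sham replicate 1 left out, 5 with knockout MI replicate 1 and 53 with wild-type sham replicate 2 left out. The count was 391 or 1244 with wild-type sham replicate 3 or wild-type MI replicate 2 left out, and 3143 with knockout sham replicate 3 left out. It was 102 with the replicate block, 0 with age as a covariate, and between 784 and 4514 under the remaining settings that kept all arrays. Under the other settings that kept all arrays, the difference ran from -1.08 to -0.42 for B2m and from -1.07 to -0.47 for Gusb, and passed under none of them. The test for B2m turned on 1 array: without knockout MI replicate 3 the difference was -1.34 (adjusted p = 0.039 in limma). Of the 13 other named genes 3 were called, all negative (Actb, Ppia and Tuba1b). An effect past the threshold in wild type and not in the knockout is therefore, for B2m and Gusb, not shown to differ between genotypes at this number of arrays.

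After infarction the knockout was lower than wild type for both genes. On the log2 scale the B2m difference was -0.92 (SE 0.27; limma, adjusted p = 0.035), or 0.53-fold with a 95% interval of 0.35 to 0.80. The Gusb difference was -0.74 (SE 0.21, adjusted p = 0.031 in limma), or 0.60-fold with an interval of 0.44 to 0.82. The groups overlapped for B2m, through knockout MI replicate 3 at 6.74 and wild-type MI replicate 1 at 6.63, and did not overlap for Gusb, where the gap was 0.28. Exact two-sided permutation tests gave p = 0.2 for B2m and p = 0.1 for Gusb. Of all tested probes 24.1% were called here, with 11.4% of the tested probes called lower in the knockout. The 12581 calls fell in number to 985, 3780 or 7988 with replicate 2, 1 or 3 of knockout MI left out and to 4032 with replicate 2 of wild-type MI left out. There were 341 in a fit of the MI groups alone, 6059 within scan 1 and 0 with age as a covariate. The number rose to 16423 with replicate 3 of wild-type MI left out and to 15499 with replicate 1 of knockout sham left out. Of the 13 other named genes, 3 were called lower in the knockout after MI (Actb, Ppia and Tuba1b) and 0 higher. This comparison shares its wild-type MI arrays with the first one, so the 2 results are not independent. All 6 arrays came from scan 1.

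These calls lay close to the threshold. In a fit of the scan 1 arrays alone the differences were the same and the adjusted p was 0.072 for B2m and 0.056 for Gusb in limma, and in a fit of only these 2 groups it was 0.11 and 0.090. Age, which cannot be told apart from genotype, was also entered as a covariate. B2m was then at -0.14 (SE 0.66, adjusted p = 0.98 in limma) and Gusb at -0.76 (SE 0.54, adjusted p = 0.84). Without age these standard errors were 0.27 and 0.21, so the fit with age was much less precise. B2m also did not pass under quantile normalization (-0.51, adjusted p = 0.15 in limma) or in the authors' values (-0.58, adjusted p = 0.12). Gusb did not pass when arrays were scaled to the other named genes (-0.57, adjusted p = 0.052). The distance from the 75th to the 99th percentile was 6.79 to 6.89 on knockout MI arrays and 7.15 to 7.38 on wild-type MI arrays. The part of this distance in the B2m difference was not tested. Leaving out knockout MI replicate 1 or 2 or wild-type MI replicate 2 ended both calls, at -0.76, -0.74 and -0.74 for B2m (adjusted p = 0.10, 0.12 and 0.12 in limma) and -0.66, -0.70 and -0.51 for Gusb (adjusted p = 0.087, 0.095 and 0.088). Leaving out knockout sham replicate 2 or wild-type sham replicate 2, which only add to the estimate of spread, moved the adjusted p of B2m to 0.051 in both cases.

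After sham surgery neither gene passed the test between genotypes. The knockout minus wild-type difference was 0.08 for B2m (SE 0.27, adjusted p = 0.91 in limma) and 0.01 for Gusb (SE 0.21, adjusted p = 0.99). The 95% intervals were 0.70-fold to 1.60-fold for B2m and 0.73-fold to 1.38-fold for Gusb. Exact two-sided permutation tests gave p = 0.7 and p = 1. In this comparison 0.0402% of tested probes were called. The count of 21 became 1052 with wild-type MI replicate 2 left out and 117 with knockout sham replicate 1 left out, and 1 to 22 with any other single array left out. There were 2600 calls with scan as a fixed block, 5365 within scan 2 and 267 under normexp. Within scan 2, where the knockout is 1 array assumed to vary like wild-type sham, the differences were 0.07 and 0.33.

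**Figure D3:**
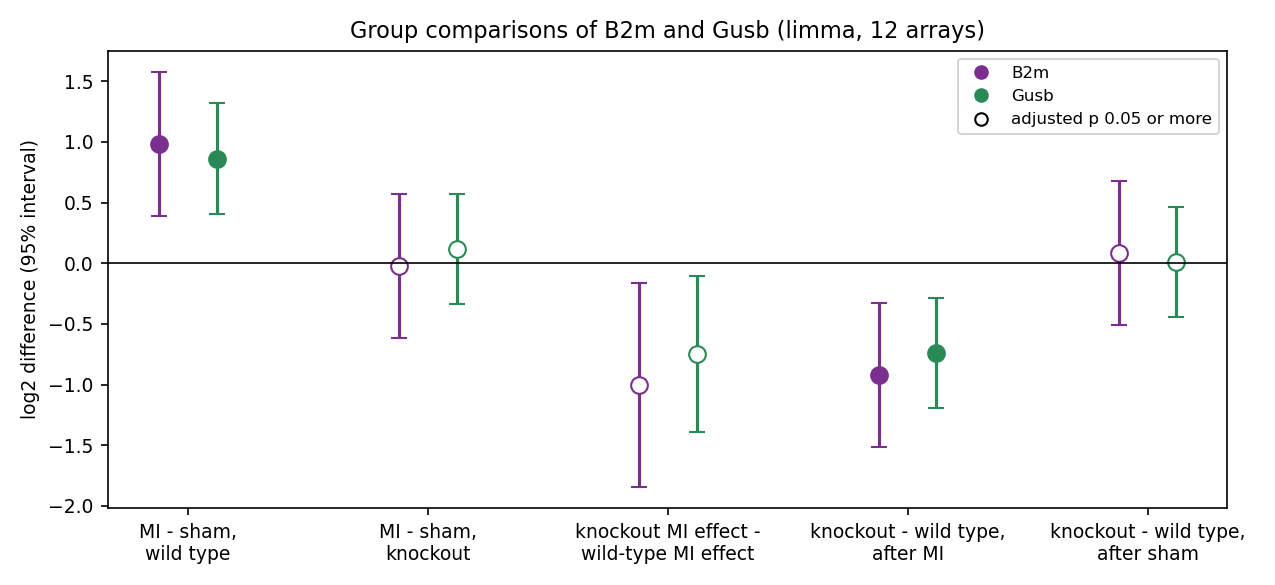
Log2 differences of B2m and Gusb in the 5 comparisons, from 1 limma fit over 12 arrays; bars are 95% intervals and filled points have an adjusted p under 0.05. Filled points appear for MI in wild type (0.98 and 0.86) and for the knockout after MI (-0.92 and -0.74) and in no other comparison.

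**Figure D4:**
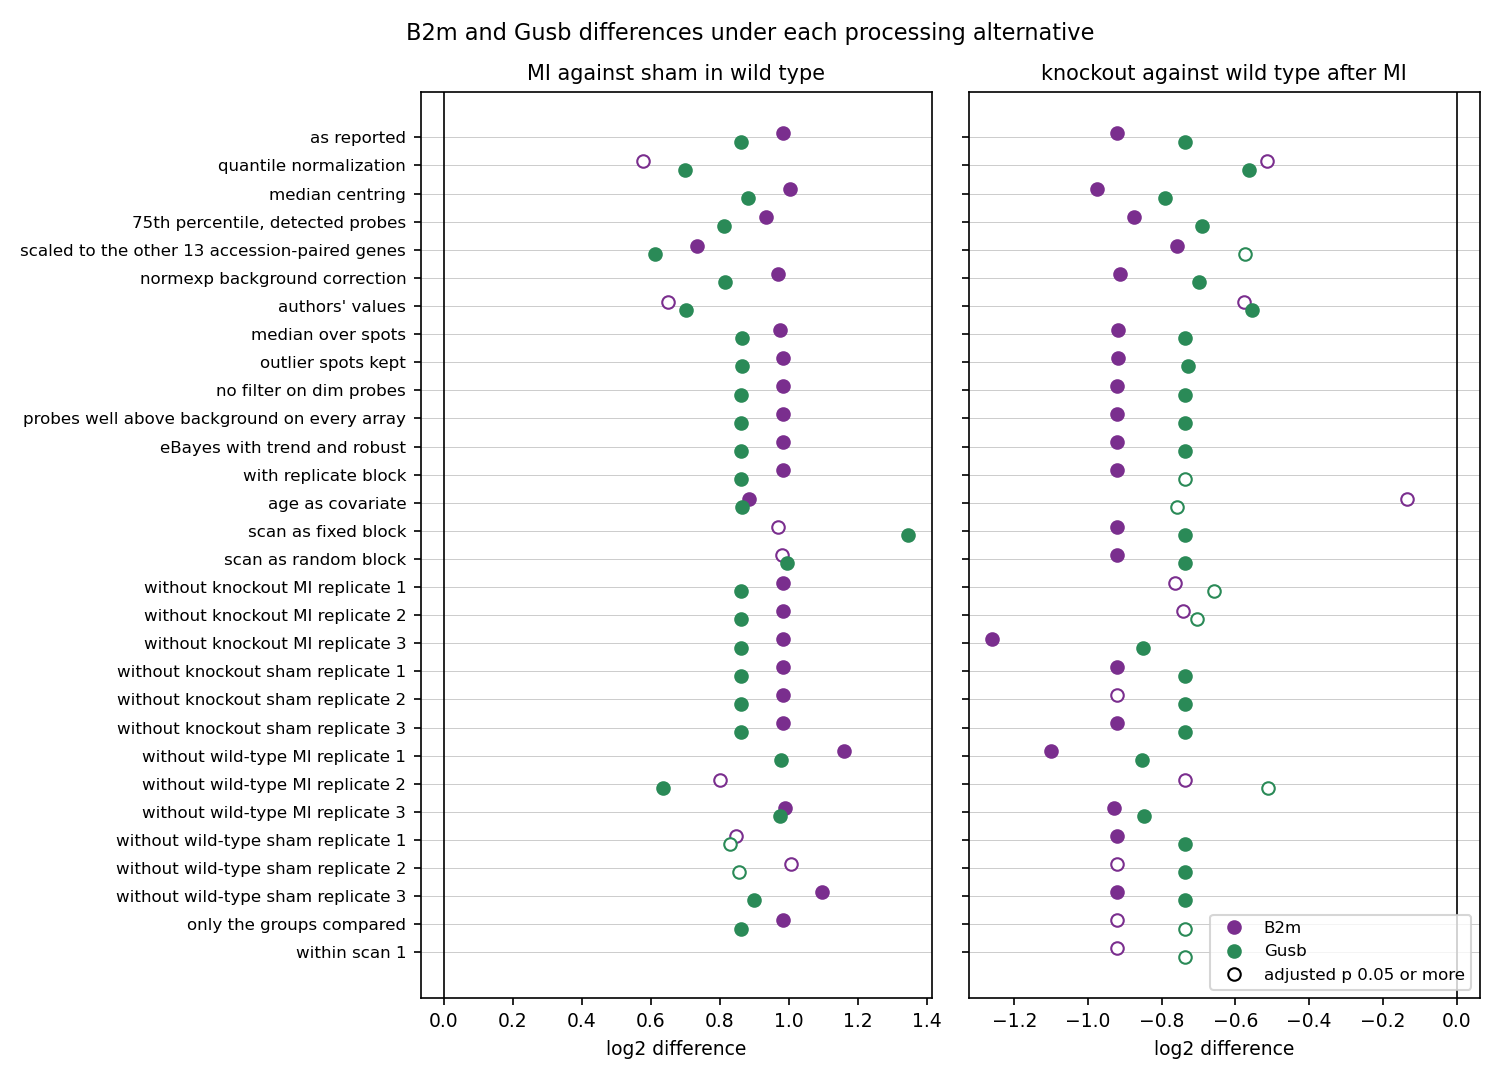
Log2 difference of B2m and Gusb for MI in wild type (left) and for the knockout against wild type after MI (right) under each processing setting and with each array left out; open points did not pass an adjusted p of 0.05 in limma. The direction is the same at every point, while B2m runs from 0.58 to 1.16 on the left and from -1.26 to -0.14 on the right.

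B2m and Gusb varied together over the arrays. Pearson's r was 0.87 (permutation p = 0.00031) and Spearman's rho 0.76 (permutation p = 0.0059) over 12 arrays. The permutations shuffled arrays regardless of group, so their p-values also reflect the differences between groups. No p-value of this relation was adjusted, although the relation was computed in several versions. Without wild-type MI replicates 2 and 3, the arrays farthest from the B2m median, r was 0.67 (permutation p = 0.034). Within scan 1 it was 0.88 over 8 arrays (permutation p = 0.0042), and within scan 2 it was 0.48 over 4 arrays, too few for a test. After removal of the group means, r was 0.63 over the 12 deviations. No permutation test was run on these, so the shared variation among arrays of a group is given as a description. Both values of an array have the same 75th percentile subtracted and come from the same labelling.

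**Figure D5:**
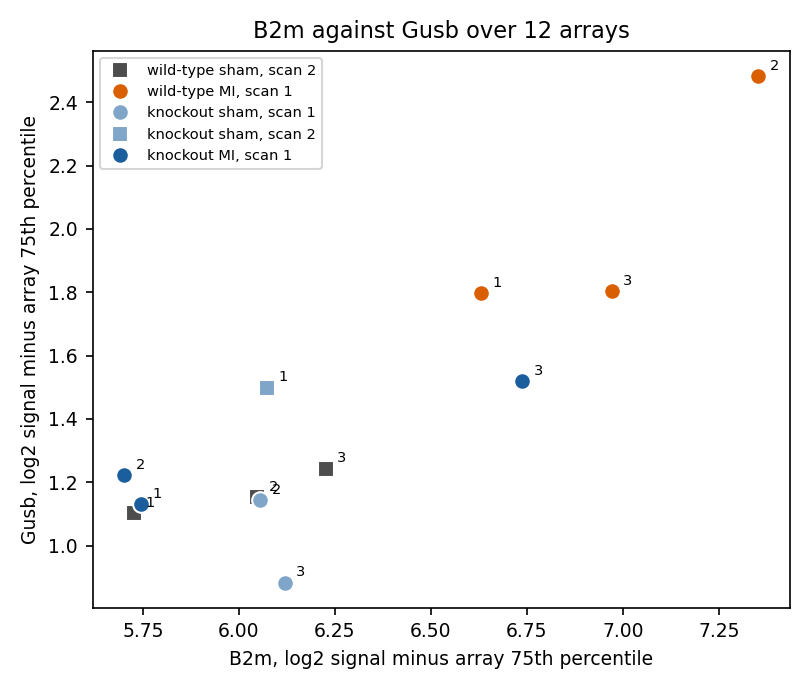
Gusb against B2m on each of 12 arrays, both as log2 signal minus the array's 75th percentile; colours are groups, circles scan 1, squares scan 2 and numbers replicates. The 3 wild-type MI arrays are the highest for Gusb. Knockout MI replicate 3, at 6.74 for B2m and 1.52 for Gusb, lies below them but to the right of wild-type MI replicate 1 (B2m 6.63).

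A shared pattern of this kind was not rare on the array: 767 probes correlated more closely with B2m than Gusb did, and 2070 more closely with Gusb than B2m did, of 52227 probes measured on every array. Among the other named genes, those most like B2m over 12 arrays were Ppia, which encodes cyclophilin A (r = 0.86), the alpha-tubulin gene Tuba1b (r = 0.85) and the cytoskeletal actin gene Actb (r = 0.84). Those most like Gusb were Ppia (r = 0.92), Actb (r = 0.92) and the ribosomal protein gene Rpl13a (r = 0.87). The least like both was G6pd2, with r = -0.84 to B2m and -0.87 to Gusb. After removal of the group means, Actb had r = 0.62 to B2m and 0.94 to Gusb. Tuba1b had r = 0.50 to B2m and 0.21 to Gusb, where it had been 0.79 to Gusb before. These correlations share arrays, scaling and labelling and are given as descriptions.

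Of the probes known by design ID, ASMM10P011159 was most like B2m (r = 0.97). It lay at 1.27, 1.99 and 1.50 in wild-type MI, 0.38, 0.50 and 0.79 in wild-type sham, 0.66, 0.52 and 0.39 in knockout sham and 0.18, 0.14 and 1.02 in knockout MI. Its high array within knockout MI was replicate 3, as for B2m. Probe ASMM10P031815 was most like Gusb (r = 0.995). It lay at 0.74, 1.67 and 0.77 in wild-type MI, and in knockout sham at 0.23, -0.21 and -0.47. Replicate 2 of wild-type MI and replicate 1 of knockout sham were the high arrays of their groups, as for Gusb. What these 2 probes measure was not identified here.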

How the data were processed

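The deposited scanner output gives linear intensity for each spot. Per the file headers, background was subtracted and spatial trends were removed array by array; the submitters' processing notes name Agilent Feature Extraction 11.0.1.1. Flags of spot quality (other units) were deposited with the intensities. Per the labels' protocols, RNA depleted of rRNA was amplified with random primers and labelled with Cy3. The authors' deposited table is on a log2 scale, as judged from its correlation with the scanner values (0.999 at its lowest); the sources used here do not give its normalization.

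Probes were matched to symbols by unversioned accession through the RefSeq table of GRCm38.p6, which also gave the promoter sequences. Values were log2 processed signals minus the array's 75th percentile, without outlier spots (35 to 66 per array), averaged over spots. Kept were 52304 probes well above background on all arrays of at least 1 group, less 5 negative controls. limma 3.58.1 in R 4.3.3 fitted a mean per group over all 12 arrays, with Benjamini-Hochberg adjustment over 52299 probes within a comparison; called means an adjusted p under 0.05. The fit was tested on simulated data. Figures were drawn with matplotlib 3.10.9. Normexp used the median spot signal with an offset of 50.

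B2m and Gusb, the lists and the tests were chosen with earlier results of these data known. Besides both genes, the rule named the 3 most and the 1 least correlated named gene and the most correlated design-ID probe for each. Gene lists and cell type markers planned for named probes were not run, since the files pair only 15 probes with accessions.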

Additional observations from a re-analysis of the deposited data

How the results depend on the processing

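In wild type after MI, B2m did not pass under quantile normalization (0.58), in the authors' values (0.65) or with scan as a fixed (0.97) or random block (0.98). For the knockout after MI, B2m did not pass under quantile normalization (-0.51), in the authors' values (-0.58) or with age as a covariate (-0.14, SE 0.66). At -0.92 it passed neither in a fit of only these groups nor within scan 1. Gusb did not pass when scaled to the other 13 named genes (-0.57) or with age (-0.76, SE 0.54). At -0.74 it did not pass with the replicate block (adjusted p = 0.052 in limma), in a fit of only these groups or within scan 1. With single arrays left out, MI in wild type ran from 0.80 to 1.16 for B2m and 0.63 to 0.98 for Gusb. The knockout after MI ran from -1.26 to -0.74 for B2m and -0.85 to -0.51 for Gusb, and the B2m difference of MI effects ran from -1.34 to -0.82, where it passed only without knockout MI replicate 3. No called difference reversed under the settings run. The replicate block ended no other call of the 2 genes. Arrays of the same number had correlations of their deviations from -0.34 to 0.34. Arrays of different numbers were not set beside them, so whether the numbers pair the ventricles was not settled. When scaled to the other named genes, the median difference over all probes was -0.29 for MI in wild type, against -0.04 as reported. Scan as a block could not be separated from age in knockout sham.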
